A study of Mus musculus with 4 samples.

Results

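The genes described here are 8 regulators of mRNA decay: Zfp36, Zfp36l1, Zfp36l2, Zc3h12a, Khsrp and Elavl1, whose proteins bind AU-rich or structured elements of mRNA, and Btg1 and Btg2, whose proteins bring deadenylases to mRNA. They were chosen by symbol, and all 8 were found among the 55339 gene symbols of the deposited table. Expression was measured by sequencing polyadenylated RNA of leukemia cells from the bone marrow of C57BL/6 mice. There were 2 libraries with the genotype WT (replicates 4 and 5) and 2 with the genotype YBX1-/- (replicates 1 and 3, titled cKO), called knockout here. How the leukemia was induced, the age of the mice, the driver of the deletion and any treatment are not given in the sources used here, nor whether the replicates came from separate animals. P-values therefore measure only the spread between these libraries, which may be technical.

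AU-rich elements are stretches of A and U in the 3′ untranslated region (3′ UTR) that mark many short-lived mRNAs, among them those of cytokines, immediate early genes and cell cycle regulators. ZFP36 proteins bind such elements and recruit the CCR4-NOT deadenylase, which removes the poly(A) tail and starts decay. ELAVL1 (HuR) binds similar elements and mostly stabilises the mRNA, and BTG proteins connect CCR4-NOT to poly(A)-binding protein. In blood cells these factors restrain inflammatory mRNAs and growth. YBX1 is itself an mRNA-binding protein, and the title of the series asks how it acts on mRNA stability in myeloid leukemia cells.

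Several of these regulators carry AU-rich elements in their own mRNA, so the elements are shown first. The motif searched was the nonamer TTATTTATT, a high-affinity site of ZFP36 proteins in DNA letters, and the pentamer ATTTA, which every such nonamer contains. Only the mRNA strand of 1 transcript a gene (GENCODE M21, GRCm38) was searched, and overlapping matches were counted. The windows below are 29 bases of 3′ UTR, 5′ to 3′, with nonamer matches in capitals for the ZFP36 genes and Elavl1 and pentamers in capitals for Btg1 and Btg2.
Zfp36: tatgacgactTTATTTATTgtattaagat
Zfp36l1: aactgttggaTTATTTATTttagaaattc
Zfp36l2: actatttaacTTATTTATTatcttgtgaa
Elavl1, first cluster: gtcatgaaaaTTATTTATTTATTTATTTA
Elavl1, second cluster: gtttgtTTATTTATTTATTTATTacttgt
Btg1: atggattatggaATTTAaaccatgtcaca
Btg2: ATTTAtttgtagatgtgtgcaatATTTAc
In GRCm38 the windows lie on the minus strand at chr7:28376951-28376979 for Zfp36, chr12:80108167-80108195 for Zfp36l1, chr17:84184914-84184942 for Zfp36l2, chr8:4285788-4285816 and chr8:4285746-4285774 for Elavl1, and chr1:134076017-134076045 for Btg2. The Btg1 window lies on the plus strand at chr10:96618724-96618752.

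Each of the 3 ZFP36 genes had 1 nonamer in its 3′ UTR, and Elavl1 had 8 nonamers. Among 3′ UTRs of tested genes within 20% of the same length, 4.51% held a nonamer for the length of Zfp36, 8.72% for that of Zfp36l1, 8.72% for that of Zfp36l2 and 18.6% for that of Elavl1. Btg1, Btg2, Khsrp and Zc3h12a had no nonamer. Pentamers numbered 11 in Btg1 and 5 in Btg2, as many as or more than which 20.97% and 35.3% of 3′ UTRs of like length held. Zfp36l1 had 9 pentamers, a number reached by 4.10% of 3′ UTRs of its length, while Khsrp had 1. A match is a stretch of letters and not a measured binding site.

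Ybx1, the deleted gene, was at 19.70 in WT replicate 4, 10.002 in WT replicate 5, and 7.29 and 8.33 in knockout replicates 1 and 3. All values are log2 expression as the authors normalized it, and differences are knockout minus WT on that log2 scale. The table holds no counts, so sequencing depth is unknown. WT replicate 4 lay over 3 log2 above the highest of the other libraries in 1554 of 17303 tested genes (8.98%) and below the lowest of them in 6073 (35.1%). The 8 regulators are therefore given with and without that library. Of 14 myeloid and progenitor markers, 11 to 13 were at log2 5 or more in each library, with Elane and Mpo, granule enzyme genes, at 15.84 and 13.13 in WT replicate 5. Of the markers of B cells (8), T and NK cells (10), erythroid cells (8), megakaryocytes (6) and stroma (8), at most 1 in each list reached log2 5 in any library. Of the T and NK cell markers, 5 (Cd3e, Cd3g, Cd4, Cd8a and Trbc2) were listed at 0 throughout. On a log2 scale the summed erythroid markers were at 6.94 and 4.20 in WT and 2.63 and 4.75 in knockout, and those of T and NK cells at 5.08 and 4.41 against 4.04 and 5.34. The summed B cell markers were at 5.81 and 7.04 in WT and 7.44 and 7.27 in knockout, those of megakaryocytes at 3.74 and 5.54 against 3.75 and 2.56, and those of stroma at 7.14 and 6.16 against 6.64 and 6.33. The part of such cells in the values below was not tested. In bulk RNA, fewer cells of a type and less RNA per cell cannot be told apart.

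In Btg1, Btg2 and Zfp36l1 the knockout pair lay below the WT pair, and the other 5 regulators overlapped between the groups. Against WT replicate 5 alone, Btg1 was 2.64-fold, Zfp36l1 2.07-fold and Btg2 1.56-fold lower by the knockout mean. No regulator passed limma's test at an adjusted p under 0.05 in all 4 libraries, and 0 of the 8 had an unadjusted p under 0.05. The deleted gene Ybx1 did not pass it either, at a limma difference of -7.04 (SE 3.49, adjusted p = 0.826). A regulator that was not called is thus not shown to be unchanged. Over all 17303 tested genes limma called 0 (0%), with 651 (3.76%) at an unadjusted p under 0.05. The knockout pair lay wholly below the WT pair in 3 of 8 regulators, against 18.8% of tested genes, and wholly above in 0 of 8, against 17.3%. Among tested genes of at least log2 5 in 2 libraries, which include all 8, these shares were 9.3% and 30.8%. With only 8 genes, 3 is a small number to set beside that share.

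**Figure D1:**
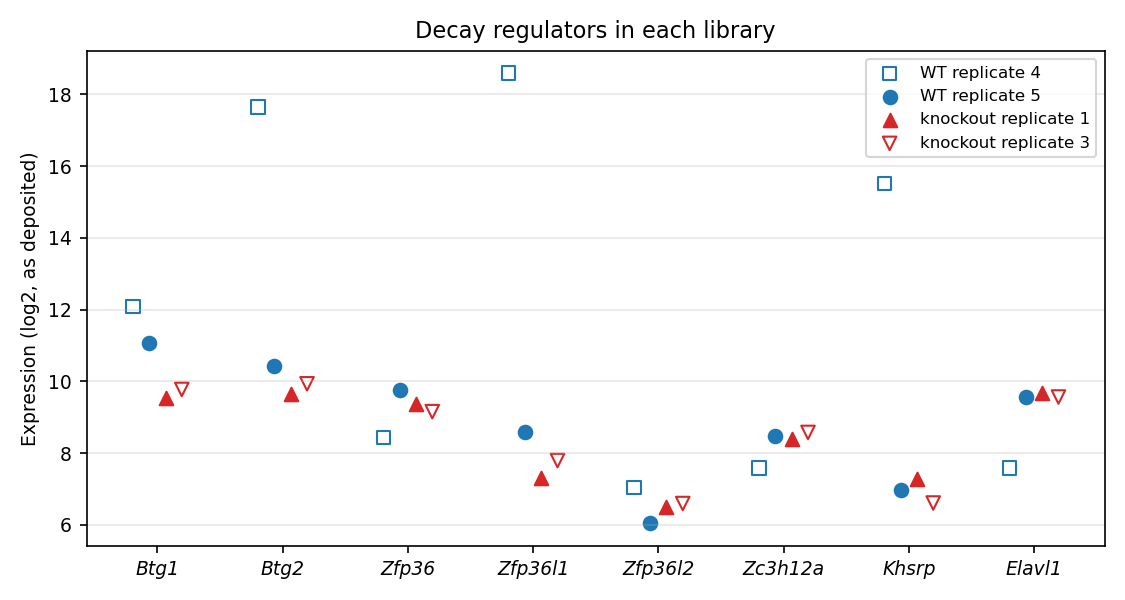
Deposited log2 expression of the 8 decay regulators (y axis) in each of the 4 libraries; blue squares and circles are WT replicates 4 and 5, red triangles knockout replicates 1 and 3. WT replicate 4 stands far above the other libraries for Zfp36l1 (18.59), Btg2 (17.65) and Khsrp (15.52), while the knockout libraries lie below both WT libraries for Btg1, Btg2 and Zfp36l1.

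Btg1, an antiproliferative gene of quiescent blood cells, gave the clearest separation. The gene lies on chromosome 10, 96617006 to 96622809, plus strand (GRCm38), and no other annotated gene overlaps it. Its values were 12.09 and 11.06 in WT replicates 4 and 5, and 9.54 and 9.78 in knockout replicates 1 and 3. The groups were 1.28 apart, more than the members of the WT pair (1.03) or of the knockout pair (0.23) were from each other, which holds for none of the other 7 regulators. WT was at 11.58 ± 0.73 (SD, n = 2) and knockout at 9.66 ± 0.16 (SD, n = 2). The limma difference was -1.92 (SE 1.16, adjusted p = 0.826). Without WT replicate 4 the limma difference was -1.40 (SE 0.22, unadjusted p = 0.0140, adjusted p = 0.466). That adjusted p was shared by 579 tested genes, and 489 had a smaller unadjusted p than Btg1. Of all tested genes, 8.51% had a difference from WT replicate 5 as low as or lower than this. With WT replicate 5 left out, limma gave -2.43 (adjusted p = 0.0203), but 28.7% of all tested genes were called in those 3 libraries. The processed pseudogenes Btg1-ps1 and Btg1-ps2, whose sequence resembles Btg1, were listed at 0 in all 4 libraries.

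Btg2, the paralog of Btg1 and a target of p53 and of growth factor signals, was lower in knockout by a smaller margin. It lies on chromosome 1, 134075170 to 134079120, minus strand, overlapped by no other annotated gene. Btg2 was at 17.65 and 10.43 in WT and at 9.65 and 9.93 in knockout. WT replicate 4 lay 7.22 above WT replicate 5, so the groups did not overlap but the WT pair spread far wider than the gap of 0.50. The limma difference was -4.25 (SE 2.93, adjusted p = 0.826) with all libraries. Without WT replicate 4 it was -0.64 (SE 0.24), with an adjusted p of 0.521. In the authors' deposited table Btg2 was called lower, at -6.71 log2 (adjusted p = 0.00575).

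In knockout the other measured members of the BTG/TOB family lay within 1 log2 of WT replicate 5, as Btg2 did. Btg3 was at 4.59 and 4.61 in WT and slightly higher, at 5.08 and 5.13, in knockout. Tob1 was at 5.20 and 6.75 against 6.44 and 6.15, and Tob2 at 5.46 and 8.01 against 7.81 and 7.31. Tob1 and Tob2, which bind CCR4-NOT and poly(A)-binding protein, thus lay between the WT libraries. Both knockout values of each lay below WT replicate 5, as in 33.4% of all tested genes. The mean difference from WT replicate 5 was -0.45 in Tob1 and in Tob2, beside -0.64 in Btg2. Btg4, a gene of oocytes, was listed at 0 in all 4 libraries. Of the 3 tested genes limma called 0, and 0 had an unadjusted p under 0.05.

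The 3 ZFP36 genes lay on different sides of WT replicate 5, and none passed the test. Zfp36 encodes tristetraprolin, the founding member, which is induced in myeloid cells by inflammatory signals. It lies on chromosome 7, 28376784 to 28380253, minus strand, and overlaps the antisense gene Gm44710, which was at 2.65 and 1.14 in WT and 1.88 and 1.32 in knockout. Zfp36 was at 8.44 and 9.77 in WT and at 9.38 and 9.16 in knockout, so both knockout values lay between the WT values. The limma difference was 0.17 (SE 0.90, adjusted p = 0.959), and without WT replicate 4 it was -0.50 (SE 0.22, adjusted p = 0.558). The direction thus turned with that library. The authors' deposited table gives Zfp36 a fold change of 0.038 log2 (adjusted p = 0.990).

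Zfp36l1, which restrains cell cycle entry in lymphocytes and is expressed through blood development, had the widest spread. The gene lies on chromosome 12, 80107754 to 80113013, minus strand, and overlaps the lincRNA gene Gm26669 of the opposite strand, which did not exceed 0.10 in any library. Zfp36l1 was at 18.59 and 8.60 in WT and at 7.31 and 7.79 in knockout. WT replicate 4 lay 9.99 above WT replicate 5, and the knockout libraries lay 1.29 and 0.81 below WT replicate 5. The limma difference was -6.04 (SE 3.46, adjusted p = 0.826), and without WT replicate 4 it was -1.05 (SE 0.35, adjusted p = 0.507). In the authors' deposited table Zfp36l1 was called lower, at -10.19 log2 (adjusted p = 6.2e-05).

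Zfp36l2, the third ZFP36 gene and one needed for blood stem cells, was at 7.04 and 6.05 in WT and at 6.49 and 6.60 in knockout. The knockout libraries lay 0.44 and 0.55 above WT replicate 5 and below WT replicate 4. The limma difference was close to 0 with all libraries (SE 0.70, adjusted p = 0.99999) and 0.49 (SE 0.34, adjusted p = 0.659) without WT replicate 4. The gene is on chromosome 17, 84183931 to 84187947, minus strand, and overlaps the antisense gene AC132455.1, which was at 3.22 and 1.92 in WT and 0.83 and 1.35 in knockout. Whether reads were counted by strand is not given in the sources used here, so reads of the overlapping genes cannot be told apart.

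Zc3h12a encodes Regnase-1, an endonuclease that cuts stem-loops of inflammatory mRNAs, and was nearly level in 3 of the libraries. It lies on chromosome 4, 125118423 to 125127840, minus strand, with no overlapping gene. It was at 7.59 and 8.47 in WT and at 8.38 and 8.58 in knockout. Without WT replicate 4 the limma difference was 0.0095 (SE 0.23, adjusted p = 0.999). With all libraries it was 0.45 (SE 0.74, adjusted p = 0.869). The authors' deposited table lists a log2 fold change of -5.77 with a p-value and an adjusted p of exactly 1, opposite in sign to the sample values. A p-value of exactly 1 is listed for 1549 of 17185 tested genes with a deposited fold change (9.01%).

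Khsrp (KSRP), a KH-domain protein that brings the exosome and deadenylases to AU-rich mRNAs, was far higher in WT replicate 4 and overlapped in the other libraries. It was at 15.52 and 6.98 in WT and at 7.29 and 6.61 in knockout, with WT replicate 5 between the knockout libraries. The limma difference was -4.30 (SE 2.91, adjusted p = 0.826) with all libraries and -0.031 (SE 0.47, adjusted p = 0.990) without WT replicate 4. The authors' deposited table lists a log2 fold change of -7.24, also with an adjusted p of exactly 1. The gene lies on chromosome 17, 57021051 to 57031522, minus strand, and overlaps Gm17949 of the opposite strand, which was at 4.10 and -0.36 in WT and 3.77 and 2.51 in knockout.

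Elavl1, the stabilising counterpart of the decay factors, differed least among the 3 libraries other than WT replicate 4, with a range of 0.12. The gene lies on chromosome 8, 4285382 to 4325413, minus strand, and overlaps Ccl25 of the opposite strand, which was at 4.87 and 5.46 in WT and 6.00 and 4.84 in knockout. Elavl1 was at 7.59 and 9.58 in WT and at 9.68 and 9.57 in knockout. The limma difference of 1.04 (SE 1.01, adjusted p = 0.826) became 0.049 (SE 0.19, adjusted p = 0.922) without WT replicate 4. The authors' deposited table gives Elavl1 a fold change of 1.02 log2 (adjusted p = 0.551).

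Without WT replicate 4, both knockout values lay below WT replicate 5 in 4 of 8 regulators, namely Btg1, Btg2, Zfp36 and Zfp36l1, and above it in Zfp36l2 only. Over all tested genes 33.4% lay below and 41.8% above, and among the 9144 genes of at least log2 5 in 2 libraries 35.2% lay below and 39.5% above. The median difference of the 8 regulators was -0.26 there, beside 0.07 over all tested genes, and -0.96 with all 4 libraries, beside -0.09. Limma called 0 of the 8 and 0% of tested genes in these 3 libraries. At an unadjusted p under 0.05 there were 1 of 8, Btg1, and 10.4% of tested genes.

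**Figure D2:**
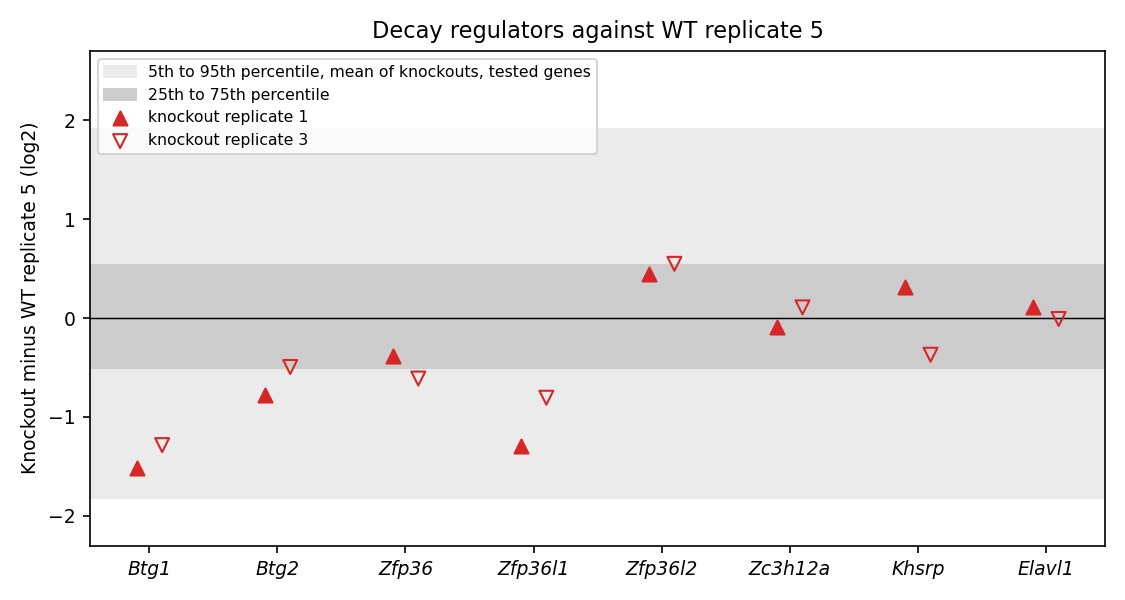
Difference of knockout replicate 1 (filled triangles) and knockout replicate 3 (open triangles) from WT replicate 5, in log2, for the 8 regulators; grey bands give percentiles of the mean difference over 17303 tested genes. Btg1 lies lowest, at -1.52 and -1.28, yet inside the band from the 5th to the 95th percentile, which runs from -1.81 to 1.91.

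By its title knockout replicate 3 belongs to RNA-seq number 2, and the other 3 libraries to number 1. Within the libraries numbered 1, knockout replicate 1 differed from the WT mean by -2.03 in Btg1, -4.39 in Btg2, -6.29 in Zfp36l1, 0.28 in Zfp36, -0.053 in Zfp36l2, 0.35 in Zc3h12a, -3.96 in Khsrp and 1.10 in Elavl1. From WT replicate 5 alone it differed by -1.52, -0.78, -1.29, -0.39, 0.44, -0.088, 0.31 and 0.11 in the same order. Btg1, Btg2 and Zfp36l1 were thus lower either way, by much less without WT replicate 4 in Btg2 and Zfp36l1, and in Zfp36, Zfp36l2, Zc3h12a and Khsrp the sign turned. With 1 knockout library these are values without a replicate check. The number 2 has 1 library only, so it gives no value of its own.

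WT replicate 4 lay over 3 log2 above the other libraries in 3 of 8 regulators, Zfp36l1, Btg2 and Khsrp, and below them in 3, Zfp36, Zc3h12a and Elavl1. Among tested genes of at least log2 5 in 2 libraries these shares were 13.1% and 65.9%. Likewise Zfp36l1 and Btg2 are called lower in the authors' deposited table (2 of the 8) and none higher, beside 3.96% and 0.157% of tested genes with a deposited fold change. The 2 called genes are both among those far higher in WT replicate 4. Btg1 had a log2 fold change of -1.90 in the authors' deposited table, which was not called there (p = 0.0265, adjusted p = 0.170).

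The genes whose pattern over the 4 libraries was most like each regulator were found by the root mean square distance of values centred on each gene's own mean. They were Pim3 for Zfp36 (distance 0.029), Tsc22d2 for Zfp36l1 (0.10), Dgkh for Zfp36l2 (0.033), F12 for Btg1 (0.10), Arpc1b for Btg2 (0.064), Pdcd2l for Elavl1 (0.033), Gatad2a for Khsrp (0.052) and Nfs1 for Zc3h12a (0.026), all in log2. F12 was at 3.15 and 1.94 in WT and 0.59 and 0.94 in knockout, far below Btg1 in level, as the distance compares centred values only. Pim3 was at 7.46 and 8.73 in WT and 8.41 and 8.17 in knockout. Tsc22d2 was at 19.93 and 10.14 in WT and 8.86 and 9.14 in knockout, and so shared the high value of Zfp36l1 in WT replicate 4. Within a distance of 0.5 there were 2984 genes for Zfp36, 3454 for Elavl1 and 3139 for Zc3h12a, but 275 for Btg1, 239 for Btg2 and 107 for Zfp36l1. With 4 libraries the patterns of the first group were thus common ones.

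The deadenylases that ZFP36 and BTG proteins recruit lay on both sides. Of 18 tested genes of CCR4-NOT, PAN2-PAN3, Parn and the poly(A)-binding proteins, 5 lay above both WT libraries and 2 below (27.8% and 11.1%), beside 17.3% and 18.8% of all tested genes and 30.8% and 9.3% of those of at least log2 5. Limma called 0, with 0 at an unadjusted p under 0.05, both with all 4 libraries and without WT replicate 4. Cnot7, a catalytic deadenylase subunit, was at 5.74 and 8.20 in WT and at 9.27 and 8.61 in knockout. Parn, a poly(A)-specific ribonuclease, was at 5.35 and 7.11 against 8.15 and 7.62. Pan3, which targets the PAN2 deadenylase to poly(A)-binding protein, was at 20.29 and 10.14 against 9.43 and 9.09, and Pabpc4, a poly(A)-binding protein, at 7.21 and 7.24 against 6.82 and 5.88. Against WT replicate 5 the median difference was -0.04, with 6 genes above and 6 below.

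Of 24 tested genes for other proteins that bind AU-rich or related elements, 7 lay below both WT libraries and 2 above (29.2% and 8.33%). Over all tested genes these shares were 18.8% and 17.3%, and 9.3% and 30.8% among those of at least log2 5. The median difference of the 24 from WT replicate 5 was -0.05. Limma called 0 of them with all 4 libraries or without WT replicate 4. At an unadjusted p under 0.05 there were 0 with all libraries and 1 without WT replicate 4, the poly(C)-binding protein gene Pcbp1, at a difference of 1.52. Pcbp1 was at 19.69 and 9.44 in WT and 10.78 and 11.13 in knockout. With all 4 libraries its difference was -3.61, so its sign turned with WT replicate 4. Tial1 and Tia1, paralogs that repress translation of AU-rich mRNAs, lay on opposite sides. Tial1 was at 13.95 and 8.23 in WT and 7.67 and 7.52 in knockout, and Tia1 at 5.31 and 6.77 against 7.71 and 7.16. Ptbp1, which binds pyrimidine tracts, was at 7.38 and 8.33 against 9.19 and 8.68, and Hnrnpa0, a target of the kinase MK2, at 8.18 and 8.38 against 7.86 and 7.48. Of the 24, the authors' deposited table has 3 called lower and none higher, beside 3.96% and 0.157% of tested genes with a deposited fold change. The 3, Hnrnpab, Tial1 and Fubp1, were far higher in WT replicate 4, at 17.09, 13.95 and 19.27, than in the other libraries. Their differences from WT replicate 5 were 0.63, -0.63 and 0.11 in the same order.

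The p38 and MK2 kinases phosphorylate ZFP36, 14-3-3 proteins hold the phosphorylated form, and DUSP1 and PP2A oppose the kinases. Of 16 tested genes of this group, 3 lay below both WT libraries and 2 above (18.75% and 12.5%). Over all tested genes these shares were 18.8% and 17.3%, and 9.3% and 30.8% among those of at least log2 5. The median difference of the 16 from WT replicate 5 was -0.03. Dusp1 was at 20.63 and 10.84 in WT and at 10.03 and 9.42 in knockout. The 14-3-3 genes Ywhaz and Ywhae were at 12.63 and 12.30 in WT replicate 5, 19.63 and 20.48 in WT replicate 4, and up to 12.30 and 12.03 in knockout, while Ywhaq was at 9.12 and 10.61 against 11.07 and 11.04. Limma called 0 of the 16 with all 4 libraries, with 0 at an unadjusted p under 0.05. Without WT replicate 4 it also called 0, with 1 of the 16 at an unadjusted p under 0.05, the p38 kinase gene Mapk13, at a difference of -1.20. In 6 of them WT replicate 4 lay over 3 log2 above the other libraries.

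Known AU-rich mRNAs, the substrates of these proteins, lay lower than WT replicate 5 more often than not. Of 37 tested, 27 (73.0%) had the knockout pair below WT replicate 5, and 9 had it above. The median difference was -0.50, beside 33.4% below and a median of 0.07 over all tested genes. Limma called 0 of them, both with all 4 libraries and without WT replicate 4. With all 4 libraries 1, Plau, had an unadjusted p under 0.05, and without WT replicate 4 there were 5, with Il1b, Plaur, Cdkn1a and Mcl1 lower and Bcl3 higher. These 5 of 37 stand beside 10.4% of all tested genes. The last 3 of these are named because of these p-values. Against both WT libraries 16 lay below and 6 above (43.2% and 16.2%). The shares were 18.8% and 17.3% of all tested genes, and 9.3% and 30.8% of those of at least log2 5. In 9 of the 37 WT replicate 4 lay over 3 log2 above the other libraries. All 9 counted among the 16, and of the other 28, 7 lay below both WT libraries and 18 below WT replicate 5, with a median of -0.37. The list holds many inflammatory genes and was drawn up with earlier results of these data known, so it is no independent evidence of direction. Most of the myeloid and progenitor markers were lower too, with 9 of 14 below WT replicate 5 and 1 above and a median difference of -0.54. Among them Itgam was at 9.31 in WT replicate 5 and 8.03 and 7.22 in knockout, and Itgb2 at 12.57 against 11.53 and 11.48. Elane, the 1 above, was at 15.84 against 16.48 and 16.55. Summed on a linear scale, the 14 were at log2 16.81 in WT replicate 5 and 17.04 and 17.12 in knockout (24.38 in WT replicate 4). Elane, the highest of them, carries most of that sum, so it does not describe the other markers. The part of these markers in the values of the AU-rich mRNAs and of the regulators was not tested.

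Among the AU-rich mRNAs, Plau, the urokinase gene, was at 12.78 and 5.70 in WT and 0.32 and 2.54 in knockout. Plau was thus low in knockout, close to the log2 0 filter in replicate 1, with the knockout values 2.22 apart. Its receptor gene Plaur was at 20.46 and 14.18 against 13.05 and 13.10. Il1b, the interleukin 1 beta gene, was at 19.44 and 10.98 against 9.87 and 9.77. Plk3, a stress-response kinase, was on the other side, at 5.70 and 7.09 in WT against 9.10 and 8.01. In each of these 4 genes the knockout pair lay wholly on 1 side, but none passed limma's test with all 4 libraries. Without WT replicate 4 the limma adjusted p was 0.498 for Plau, 0.474 for Plaur, 0.466 for Il1b and 0.552 for Plk3. Among the 37, the authors' deposited table has lower calls for 5 and no higher call. Of the 5, Plau, Plaur, Cdkn1a and Pim1 were far higher in WT replicate 4 than in the other libraries, and Myc was not. Of tested genes with a deposited fold change, 3.96% are called lower and 0.157% higher.

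**Figure D3:**
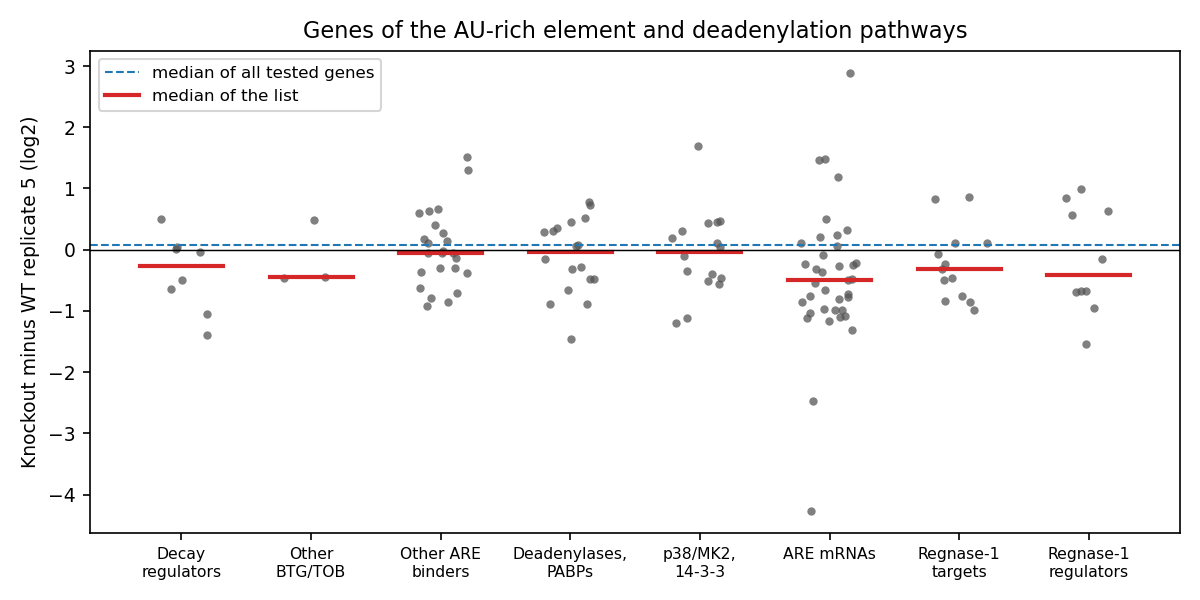
Knockout mean minus WT replicate 5 in log2 (y axis) for each tested gene of 8 groups (grey points, scattered sideways for visibility); red bars are group medians and the dashed line the median of all tested genes, 0.07. The group of AU-rich (ARE) mRNAs has the lowest median, -0.50, followed by the other BTG/TOB genes with 3 points.

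Lower values in that list were not more frequent with a nonamer. Of the 37, the 13 with a nonamer in the 3′ UTR had 7 below and 6 above WT replicate 5 (median difference -0.21), and the 24 without one had 20 below and 3 above (median -0.69). Over all 12616 tested genes with an annotated 3′ UTR, 902 (7.15%) held a nonamer. Both knockout values lay below WT replicate 5 in 37.3% of these and in 32.3% of the 11714 without a nonamer, and the median differences were -0.03 and 0.09. With 0, 1, 2, and 3 or more nonamers, 32.3%, 36.9%, 37.4% and 40.3% of genes lay below WT replicate 5. Above it lay 42.7%, 33.4%, 40.7% and 37.3%, in no order. The classes held 11714, 712, 123 and 67 genes, with median 3′ UTRs of 890, 2061.5, 2861 and 2929 bases. The median 3′ UTR was 2232.5 bases long with a nonamer and 890 bases without, so site and length go together here. Median levels in WT replicate 5 were 6.75 and 6.82. With all 4 libraries the median differences were 0.22 and 0.27.

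**Figure D4:**
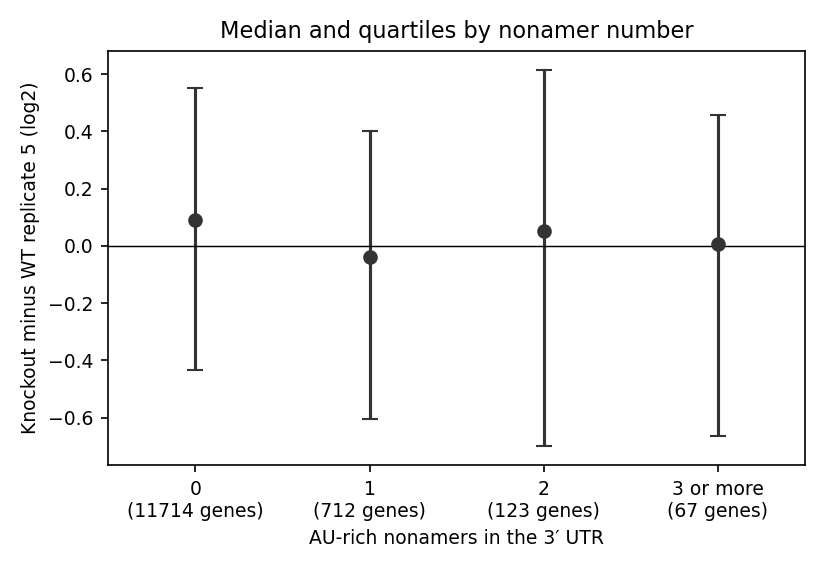
Median (points) and quartiles (bars) of knockout mean minus WT replicate 5 in log2, for tested genes with 0, 1, 2, and 3 or more nonamers in the 3′ UTR. The medians are 0.09, -0.04, 0.05 and 0.01, with no order by number of sites, and the quartiles overlap widely. The share of genes with both knockout values below WT replicate 5, not drawn, rises from 32.3% to 40.3%.

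Targets and regulators of Regnase-1 showed no common side against both WT libraries. Of 13 tested targets, 5 of which are also in the list of AU-rich mRNAs, 2 lay below both WT libraries and 1 above (15.4% and 7.69%). Over all tested genes these shares were 18.8% and 17.3%, and 9.3% and 30.8% among those of at least log2 5. Against WT replicate 5, 8 of the 13 lay below and 2 above (median -0.31), beside 33.4% and 41.8% of all tested genes. Tfrc, the transferrin receptor gene, was at 7.31 and 7.42 in WT and 8.72 and 7.85 in knockout. Nfkbiz was at 20.65 and 10.06 against 9.85 and 9.64, and Ptgs2 (COX-2) at 6.87 and 5.70 against 5.66 and 5.29. Of 10 genes that act on Regnase-1 protein or its RNA decay, 4 lay above both WT libraries and 1 below (40% and 10%). The shares were 17.3% and 18.8% of all tested genes, and 30.8% and 9.3% of those of at least log2 5. The median difference of the 10 from WT replicate 5 was -0.41. Chuk, an IκB kinase subunit, was at 7.38 and 7.47 in WT and 8.64 and 8.30 in knockout, and Otud5 at 5.29 and 6.46 against 7.42 and 7.19. Fbxw11, a subunit of the ubiquitin ligase that degrades Regnase-1, was at 5.85 and 8.39 against 9.30 and 8.74, and Upf1, the helicase that Regnase-1 works with, at 11.17 and 6.30 against 6.14 and 5.13. Limma called 0 of either list, with 0 at an unadjusted p under 0.05.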

How the data were processed

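The authors deposited 1 table with 55339 gene symbols, 4 columns of log2 expression and a log2 fold change, p-value and adjusted p-value of their comparison. Per the submitters' processing notes the tools were CASAVA, HISAT2 2.1.0, featureCounts and DESeq2 with GRCm38, and their roles are not stated. Nor is the normalization. The deposited fold change is read as knockout over WT.

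The deposited log2 values were fitted with limma 3.58.1 (R 4.3.3), allowing a mean-variance trend. The 17303 genes of at least log2 0 in at least 2 libraries, without rows that are 0 throughout, were tested. Benjamini-Hochberg adjustment ran over all of them. Where 1 library of a group is left, it is assumed to vary like the other group's pair. With 2 libraries a group no exact test can reach 0.05. The smallest exact two-sided p is 1 in 3 (33.3%).

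The 8 members and all lists were chosen with earlier results of these data known. The rule named all members, up to 4 genes of each list with the widest gap between non-overlapping groups (where fewer than 2, those with the smallest p), and the 1 most similar gene a member. Other genes were named after their values were seen. 3′ UTRs came from the principal transcript with the longest 3′ UTR in GENCODE M21. Alternatives left out each library or changed the filter, pseudocount, scaling or trend.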

Additional observations from a re-analysis of the deposited data

How the results depend on the processing

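Btg1, Btg2 and Zfp36l1 kept a negative difference in all 12 alternatives, and Elavl1 a positive one. The changed filters and the fit without trend cannot alter a gene's difference, and the pseudocounts hardly moved these, so such settings are no check of direction. For Elavl1 the difference was only 0.049 without WT replicate 4, with knockout values on both sides of WT replicate 5. Leaving out 1 library gave -2.43 to -1.40 for Btg1, -7.86 to -0.64 for Btg2, -11.04 to -1.05 for Zfp36l1, 0.049 to 2.04 for Elavl1, -8.57 to -0.031 for Khsrp, 0.0095 to 0.89 for Zc3h12a, -0.50 to 0.84 for Zfp36 and -0.49 to 0.49 for Zfp36l2. Limma called 5 of the 8 without WT replicate 5 (Btg1, Btg2, Zfp36l1, Elavl1 and Khsrp) and none under any other setting; of all tested genes it called 4960 when WT replicate 5 was left out, 88 and 26 when knockout replicate 3 or 1 was, and 0 when WT replicate 4 was. Regulators below WT numbered 3 to 5 and above WT 1 to 3 with 1 library left out. With median centring 1 lay above, and with WT replicate 4 also left out 2 did. Of these settings, shares over all tested genes were computed only without WT replicate 4 and without centring (33.4% below and 41.8% above). Groups overlap less easily when 1 library of a group is left, so these counts are not read as a result about the regulators. Zfp36 turned to -0.29 with quantile normalization and -0.42 with median centring without WT replicate 4. Zfp36l2 turned to -0.14 with median centring, -0.55 with quantile normalization, -0.00032 with a pseudocount of 0.5 and -0.00076 with 1. Khsrp turned to 0.044 with median centring without WT replicate 4, and Zc3h12a to -0.098 with quantile normalization. The cause was not tested. The median of the regulators was -1.46 to -0.26 with 1 library left out and -0.19 with median centring without WT replicate 4; the other BTG/TOB genes gave -0.45 to 1.09 and -0.37, and the Regnase-1 regulators -0.41 to 1.31. The median over all genes was -0.09, and 0.16 with quantile normalization, -0.23 with median centring and 0.60 with the filter of log2 5. No paired analysis was possible because the groups share no replicate number. Depth is unknown, so no detection limit was computed.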
